A study of Mus musculus with 12 samples.

Results

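The mitochondrial respiratory chain was examined across both of its genomes in CD8+ progenitor T (T_prog_) cells with and without the histone demethylase UTX. Members were taken by gene symbol: the mitochondrial prefix mt-, the Nduf subunit families a, b, c, s and v without the assembly factors, Cox4 to Cox8, Uqcr, Atp5, and the succinate dehydrogenase genes Sdha, Sdhb, Sdhc and Sdhd. Of 25860 genes listed in the RNA-seq table, 95 matched these symbols, and among those with the mitochondrial prefix were only the ribosomal RNAs mt-Rnr1 and mt-Rnr2. The 13 mitochondrial mRNAs were listed under their RefSeq names (ND1 to ND6, ND4L, CYTB, COX1 to COX3, ATP6 and ATP8) and were added as genes of the mitochondrial chromosome, which gave 108 members: 13 mitochondrial mRNAs, 2 mitochondrial rRNAs, 88 nuclear-encoded subunits and 5 pseudogenes.

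RNA-seq and ATAC-seq were performed on T_prog_ cells from pancreatic lymph nodes, with 3 libraries per genotype in each assay. *NOD-TCR 8.3 UTX TCD* mice carried *UTX fl/fl* alleles with Cre under the Lck promoter, which acts in T cells, on the nonobese diabetic (NOD) background, and *NOD-TCR 8.3 WT* mice kept UTX. Both genotypes carried the NY8.3 T cell receptor transgene, which recognizes a β cell antigen, so the CD8+ T cells largely shared a fixed receptor in place of a natural repertoire. The study's methods name Cre-negative littermates as controls for the line without the transgene, the sort gate was given as Ly108+CXCR6- in the labels and Ly108+CD39- in the methods, and age was not given for these libraries in the sources used here. The methods restrict the study's mice to females. The libraries held 146456724, 144503203 and 193568919 counted reads in *NOD-TCR 8.3 WT* and 61512402, 175462433 and 187275082 in *NOD-TCR 8.3 UTX TCD*, so UTX TCD library 1 was the shallowest. The first principal component, with 70.0% of the variance, separated the genotypes.

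Kdm6a, the gene that encodes UTX, had 28365, 28949 and 29172 normalized counts (reads divided by 1 size factor per library) in the WT libraries and 24158, 24792 and 24579 in the UTX TCD libraries. All UTX TCD libraries were below all WT libraries, with a log2 fold change (UTX TCD minus WT, as throughout) of −0.23 (SE 0.04, adjusted p = 0.00114). The count covers the whole gene, including exons outside any deleted part, so it checks the genotype labels only weakly. Slamf6, which encodes the sort marker Ly108, had 27732, 34096 and 23305 normalized counts in WT and 36665, 30980 and 35425 in UTX TCD, with overlapping groups (0.29, SE 0.12, adjusted p = 0.0890). Cxcr6, which the labels give as the negative gate, was present at 12757, 9619 and 13724 in WT and 5286, 5994 and 5695 in UTX TCD, and so was not absent from the sorted cells. Entpd1, which encodes CD39, lay between 4.42 and 29.6 in every library. The T cell genes Cd8a (270012 to 313000) and Trac (100214 to 108921) and the progenitor factor Tcf7 (220872 to 244276) were high in every library. Of the 8 CD8+ T cell genes, Cd8a (0.13, adjusted p = 0.146) and Trac (−0.01, adjusted p = 0.888) did not pass and 5 passed lower: Cd8b1 (−0.37), Cd3d (−0.28), Cd3g (−0.26), Lck (−0.17) and Cd2 (−0.49). Cd3e passed higher (0.17, adjusted p = 0.0414). Of all genes tested, 20.5% passed lower and 20.2% higher at an adjusted p under 0.05. The summed counts of the list, with Cd8a most abundant, were 1122506, 1055577 and 1098227 in WT and 1075060, 1050592 and 969722 in UTX TCD, and the part of these differences in the respiratory result was not tested.

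The respiratory chain passes electrons from NADH through complex I, or from succinate through complex II, to ubiquinone, then through complex III and cytochrome c to complex IV, where oxygen is reduced, and complex V uses the resulting proton gradient to make ATP. The mitochondrial genome encodes the hydrophobic core of complexes I, III, IV and V, whereas complex II and all other subunits are encoded in the nucleus, translated in the cytosol and imported. Quiescent and memory-like T cells are known to rely more on this pathway, and activated effector T cells more on glycolysis.

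Expression of the respiratory chain was lower in UTX TCD T_prog_ cells across both genomes. Of the 100 members that could be tested (mean normalized count of at least 10), 78 fell at an adjusted p under 0.05, when 20.5% of the 14459 genes tested fell by the same rule. Only Cox6b2 rose (20.2% of all genes tested rose), and 21 members did not pass. Most of the differences were small: 11 members were called lower, which also required an absolute log2 fold change over 0.5 (7.05% of all genes), and 1 was called higher (10.5% of all genes); 6 were called lower when each library was scaled to the same sum, with or without the mitochondrial genes in it. In 78 members every UTX TCD library was below every WT library, against 26.1% of all genes. The median log2 fold change was −0.32 over the members and 0.00 over all genes tested. When each library was scaled to the same sum, which moved the median of all genes to 0.06, 59 members passed lower, and when the mitochondrial genes were first left out of that sum, 60 did. The lower counts could come from less RNA per cell or from fewer cells of a type within the sorted population, which cannot be told apart in bulk RNA.

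**Figure D1:**
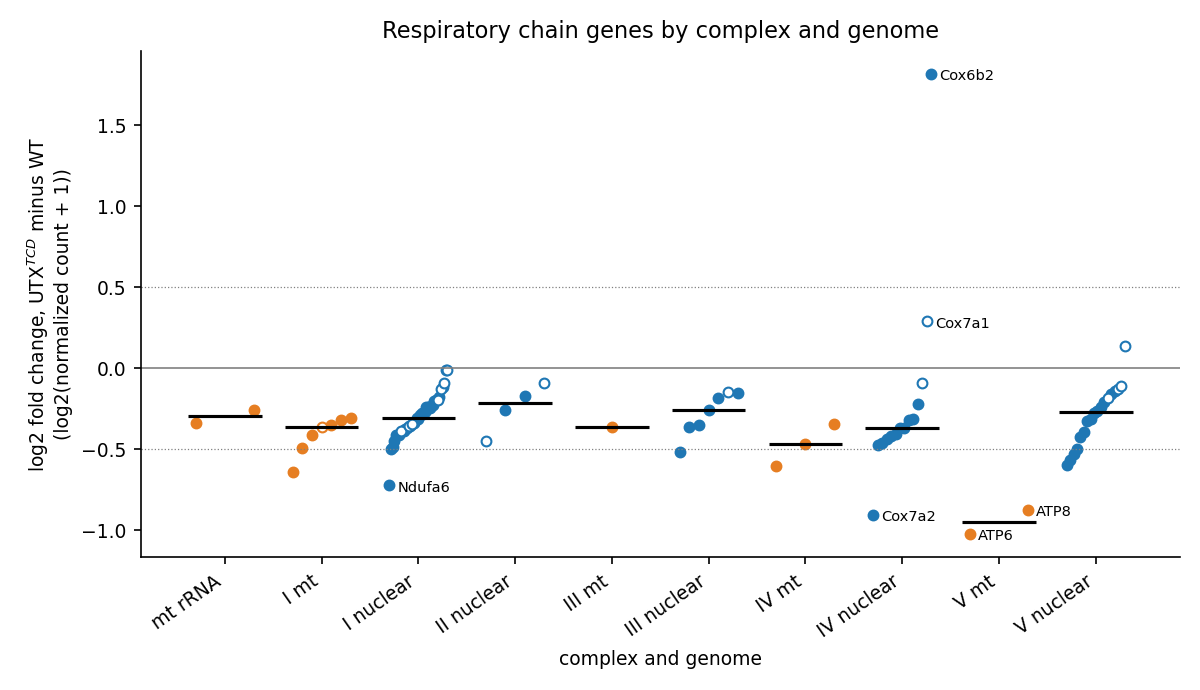
Log2 fold change (UTX TCD minus WT, on log2(normalized count + 1)) of each tested member on the vertical axis, grouped by complex and genome on the horizontal axis, with 3 libraries per genotype. Filled points passed an adjusted p under 0.05, open points did not, black bars are group medians and dotted lines mark 0.5 and −0.5. Every group median lies below 0, from −0.21 for complex II to −0.95 for the mitochondrial mRNAs of complex V, and Cox6b2 stands apart at 1.82; no nuclear complex median changed sign under the other scalings, while Ndufs3 and Ndufv3 did.

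Mitochondrially encoded mRNAs fell as a group. All 13 log2 fold changes were below 0, here and under each other scaling, with a median of −0.41, and 12 of 13 passed lower, 4 of them called. With scaling to the same sum, 7 of 13 passed. COX1, the catalytic core of complex IV and the most abundant mitochondrial mRNA, had 1698154, 1584761 and 1581344 normalized counts in WT and 1277836, 1210260 and 1346342 in UTX TCD (−0.34, SE 0.08, adjusted p = 0.00703). Its groups did not overlap, and the mean changed by −21.2%. CYTB, the mitochondrial subunit of complex III that carries the quinone sites, had 900497, 852357 and 738084 in WT and 687983, 589113 and 658690 in UTX TCD (−0.36, SE 0.09, adjusted p = 0.0131). Here too all WT libraries were above all UTX TCD libraries, with WT library 3 lowest among WT (the fall did not pass without WT library 1 or without UTX TCD library 2, at −0.30 each).

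Mitochondrial subunits of the proton-pumping membrane arm of complex I were lower, some with separate and some with overlapping groups. ND1, at the junction with the quinone site, had 566097, 533632 and 478152 normalized counts in WT and 382534, 333272 and 406200 in UTX TCD (−0.49, SE 0.09, adjusted p = 0.00241). The groups were separate, and this was the largest fall among the 7 mRNAs other than the low-count run described in the next paragraph. ND4 (−0.41, adjusted p = 0.00958) and ND5 (−0.31, adjusted p = 0.0184), both antiporter-like subunits, also had separate groups, although ND5 did not pass under scaling to the same sum (−0.24), without WT library 1 (−0.25) or without UTX TCD library 2 (−0.24). ND2 (−0.35, adjusted p = 0.0245) and ND6 (−0.32, adjusted p = 0.0456) passed, but UTX TCD library 3 (314789 for ND2 and 150491 for ND6) was above WT library 3 (313939 and 144160), and neither passed under scaling to the same sum or without WT library 1, WT library 2, UTX TCD library 1 or UTX TCD library 2 (ND2 −0.35 to −0.26, ND6 −0.34 to −0.21). ND6 is the only protein-coding gene of the light strand, and since the strand setting of the counting is not stated, its reads cannot be told apart from transcripts of the opposite strand. The rRNAs of the mitochondrial ribosome fell as well. The small-subunit rRNA mt-Rnr1 had 86158, 82510 and 78508 in WT and 72079, 66381 and 68710 in UTX TCD (−0.25, SE 0.05, adjusted p = 0.00406), and the large-subunit rRNA mt-Rnr2 had 200775, 232616 and 204995 against 157626, 164343 and 182529 (−0.34, SE 0.07, adjusted p = 0.00639). In both, all UTX TCD libraries were lowest. The libraries were made with an mRNA kit, so rRNA levels are not those of total RNA.

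A run of neighbouring mitochondrial genes was counted at far lower levels than the rest. Per kb of gene, COX1 had a WT mean of 1049463 normalized counts and ND4 239978, whereas COX2, COX3, ATP6, ATP8, ND3 and ND4L, which lie between them, had 8420, 5794, 13064, 3505, 776 and 2777. A search of the mm10-equivalent reference (GRCm38.p6) found that 99.0% to 100% of the 50-base windows of these 6 genes also occur exactly on chromosome 1, within chr1:24611535-24616184, a nuclear copy of mitochondrial DNA. By the same search ND4 had 62.2% and COX1 51.1% of its windows elsewhere in the genome, 827 and 430 windows of them on chromosome 1, so both lie partly in the copy, and ND1, ND6 and CYTB had none. How reads with more than 1 match were counted is not stated, and the part of the copy in these levels was not tested. The 6 mRNAs wholly or almost wholly in the copy had a median log2 fold change of −0.62, with 5 of 6 passed lower and all 4 mitochondrial calls among them, and the 7 others, ND4 and COX1 among them, had −0.35, with 7 of 7 passed lower and ND1 the furthest at −0.49. This grouping was made after the levels were seen.

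ATP6 and ATP8 encode the proton channel subunit of complex V and its small neighbour. ATP6 had 14951, 6966 and 4773 normalized counts in WT and 4490, 3102 and 4256 in UTX TCD (−1.02, SE 0.34, adjusted p = 0.0414). WT library 1 was far above all others, and without it the log2 fold change was −0.56 and the call was lost. The call was also lost without WT library 2 (−1.12), UTX TCD library 2 (−0.86) or UTX TCD library 3 (−1.09), under scaling to the same sum (−0.96) and in DESeq2 (−1.17). ATP8 had 764, 740 and 641 in WT and 337, 313 and 558 in UTX TCD (−0.87, SE 0.20, adjusted p = 0.00839), with UTX TCD library 3 closest to WT. COX3, a core subunit of complex IV, fell from 5048, 4866 and 3714 to 3282, 2605 and 3052 (−0.60, SE 0.12, adjusted p = 0.00433), and ND3 from 288, 286 and 236 to 193, 158 and 168 (−0.64, SE 0.15, adjusted p = 0.00962). Neither gene had overlapping groups. COX2, which takes electrons from cytochrome c, overlapped between groups (6609, 6269 and 4400 in WT, 4760, 3424 and 4256 in UTX TCD, −0.46, adjusted p = 0.0449) and did not pass under the same alternatives as ATP6 (−0.49 to −0.33), and ND4L did not pass (−0.36, adjusted p = 0.0693). ND4L did pass in DESeq2 (−0.37, adjusted p = 0.0343) and without WT library 3 (−0.50, adjusted p = 0.0174), and was at −0.23 without WT library 2, over a range of adjusted p from 0.0174 to 0.205 in the alternatives.

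**Figure D2:**
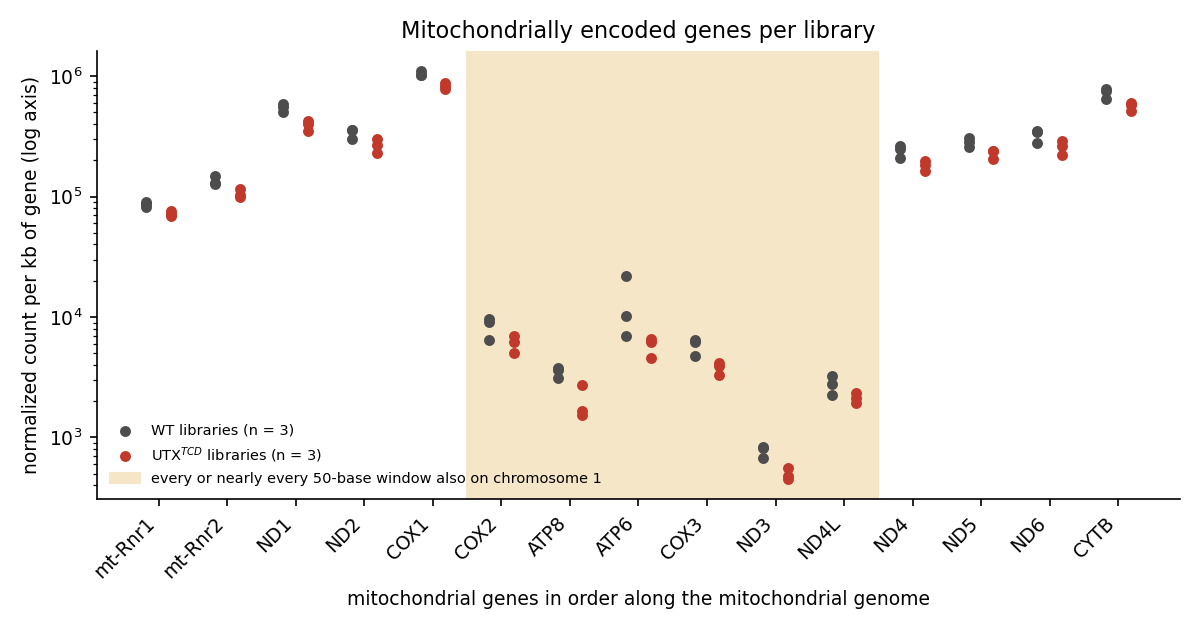
Normalized counts per kb of gene (log axis) for each mitochondrially encoded gene in genome order, with 1 point per library, 3 WT (grey) and 3 UTX TCD (red). The shaded genes, from COX2 to ND4L, have 99.0% to 100% of their 50-base windows also on chromosome 1 and lie between 776 and 13064 per kb in the WT mean, against 86274 or more for every other gene; all log2 fold changes are below 0 in each scaling tried.

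Summed over genes, the mitochondrial genome gave 3.41%, 3.31% and 2.92% of counted reads in the WT libraries and 2.68%, 2.37% and 2.77% in the UTX TCD libraries. The groups did not overlap, and the mean went from 3.21% ± 0.259 (SD, n = 3) to 2.61% ± 0.211 (SD, n = 3), a relative change of −18.8%. Counting error was small beside this: the widest 95% Wilson interval, in UTX TCD library 1, was 0.0040 percentage points on either side, which covers counting error only. Nuclear-encoded subunits gave 0.587%, 0.590% and 0.599% of counts in WT and 0.518%, 0.524% and 0.525% in UTX TCD, a relative change of −11.7%, with a much narrower spread (SD 0.00625 in WT and 0.00359 in UTX TCD, n = 3 each). All UTX TCD libraries were again below all WT libraries.

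The balance between the genomes, taken from summed counts, overlapped between the genotypes. The log2 ratio of summed mitochondrial mRNA counts to summed nuclear subunit counts, which does not depend on scaling, was 2.45, 2.39 and 2.19 in WT and 2.28, 2.07 and 2.30 in UTX TCD. UTX TCD libraries 1 and 3 lay above WT library 3, and the difference of −0.12 was smaller than the SD of either group (0.14 in WT and 0.13 in UTX TCD, n = 3 each). Leaving out 1 library at a time gave −0.20 to −0.05. Averaging log2 counts over genes in place of summing counts gave −0.22. The SDs above are those of the summed ratio, and the spread of the averaged measure between libraries was not taken. Leaving out the 6 mRNAs wholly or almost wholly in the chromosome 1 copy, a choice made after the data were seen, also gave −0.12, with ND4 and COX1 kept. Within single complexes the ratio overlapped between genotypes in all 4 that have subunits from both genomes, with differences of −0.14 for complex I, −0.07 for complex III, 0.01 for complex IV and −0.81 for complex V, where ATP6 in WT library 1 set the highest value.

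**Figure D3:**
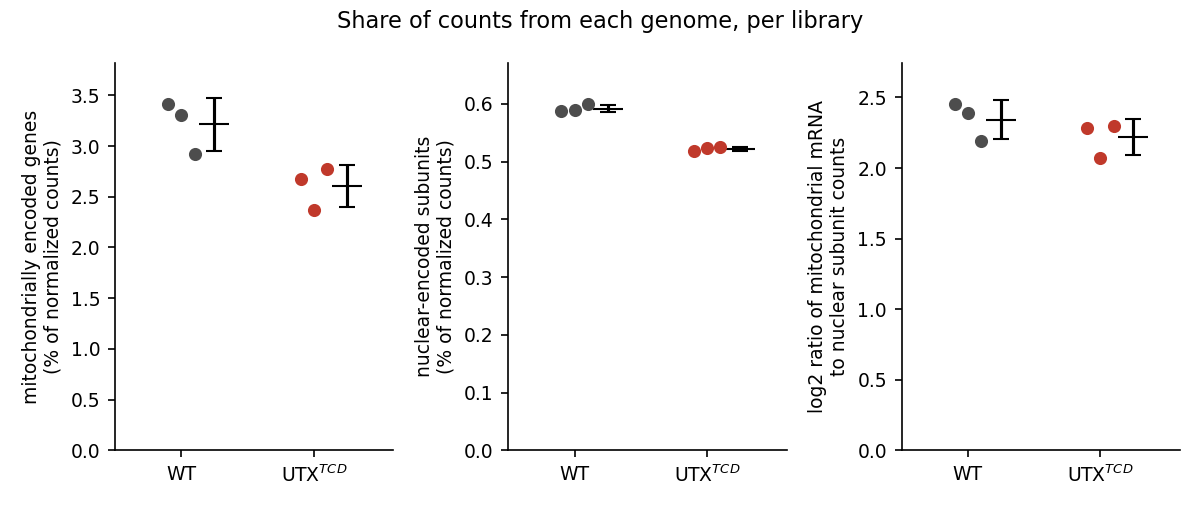
Share of normalized counts from mitochondrially encoded genes (left, percent), from nuclear-encoded subunits (middle, percent) and the log2 ratio of mitochondrial mRNA to nuclear subunit counts (right), with 1 point per library and the mean ± SD (n = 3) beside the points. The WT libraries lie above all UTX TCD libraries in the left and middle panels (2.92% to 3.41% against 2.37% to 2.77%, and 0.587% to 0.599% against 0.518% to 0.525%), and the groups overlap in the right panel.

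Among nuclear-encoded subunits, 80 of 88 were tested, and 62 passed lower, 1 passed higher and 17 did not pass, with a median log2 fold change of −0.31. The medians by complex were −0.31 for complex I, −0.21 for complex II, −0.26 for complex III, −0.37 for complex IV and −0.27 for complex V. Whether the complexes differ from one another was not tested. The counts here and for each complex below are to be read against all tested genes, of which 20.5% passed lower and 20.2% higher.

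Complex I, NADH dehydrogenase, had 29 of 37 tested nuclear subunits lower. The 7 nuclear core subunits, which carry the flavin and the iron-sulfur clusters, had a median of −0.13 with 4 of 7 lower, and the 30 tested accessory subunits, which surround the core and support assembly and stability, had −0.34 with 25 of 30 lower. Ndufs1, the largest core subunit, went from 15700, 15609 and 15941 normalized counts in WT to 14025, 13951 and 13850 in UTX TCD (−0.18, SE 0.04, adjusted p = 0.00500), tight within each group and separate between them. Ndufs3, a core subunit next to the quinone site, had 5852, 5850 and 6140 in WT and 5855, 5915 and 5931 in UTX TCD (−0.01, SE 0.04, adjusted p = 0.862). The accessory subunit Ndufv3 had 9411, 8164 and 8431 against 8995, 8639 and 8162 (−0.01, SE 0.06, adjusted p = 0.912). Both overlapped between groups, and both changed sign under scaling to the same sum (0.05 each).

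Several small accessory subunits of complex I moved more. Ndufa1, needed for assembly of the membrane arm, had 4247, 3917 and 4470 in WT and 2836, 3089 and 3000 in UTX TCD (−0.50, SE 0.06, adjusted p = 3.43e-04), and Ndufa2 had 3805, 3878 and 4405 against 2805, 2974 and 2828 (−0.49, SE 0.07, adjusted p = 5.09e-04). In both, the lowest WT library was well above the highest UTX TCD library. Ndufs4, whose loss causes mitochondrial disease in mice and humans, had 7848, 7640 and 8328 against 6359, 6474 and 6754 (−0.28, SE 0.05, adjusted p = 0.00202). Ndufa6 was the only nuclear complex I subunit called lower, at 1839, 1707 and 1075 in WT and 1248, 782 and 768 in UTX TCD (−0.72, SE 0.23, adjusted p = 0.0349). UTX TCD library 1 was above WT library 3, and the call was lost under scaling to the same sum, in DESeq2, and without WT library 1, WT library 2, UTX TCD library 2 or UTX TCD library 3 (−0.72 to −0.58 over these).

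Ndufa6 shared its split into high and low libraries with a few other subunits, picked out after their values were seen. Ndufa12 had 2218, 2263 and 1372 in WT and 1831, 1256 and 1340 in UTX TCD (−0.39, adjusted p = 0.160), and Ndufa8 had 1257, 1332 and 830 against 1152, 774 and 765 (−0.34, adjusted p = 0.219). In each, WT libraries 1 and 2 and UTX TCD library 1 were high and the other libraries low, so the values varied within each genotype. The high libraries were also the 3 with the fewest counted reads (61512402, 144503203 and 146456724, against 175462433 or more in the others), and the part of depth in these values was not tested.

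Complex II, succinate dehydrogenase, is wholly nuclear-encoded and also works in the tricarboxylic acid cycle. Sdha, the flavoprotein that oxidizes succinate, had 39542, 38907 and 39509 normalized counts in WT and 37702, 37034 and 35890 in UTX TCD (−0.09, SE 0.04, adjusted p = 0.0869), with separate groups that did not pass the test. Sdhb, the iron-sulfur subunit, passed at −0.17 (10945, 10835 and 10133 against 10187, 9151 and 8987, SE 0.06, adjusted p = 0.0408) with overlapping groups, and the membrane anchor Sdhc passed at −0.25 (8595, 8470 and 7757 against 7704, 6571 and 6578, SE 0.07, adjusted p = 0.0198). UTX TCD library 1 was the highest of its genotype for both genes, and neither passed under scaling to the same sum or without WT library 1, WT library 2, UTX TCD library 2 or UTX TCD library 3 (Sdhb −0.16 to −0.11, Sdhc −0.24 to −0.19). Sdhd, the other anchor, was low at 270, 276 and 147 against 241, 133 and 136 (−0.45, SE 0.30, adjusted p = 0.275), in the library order seen for Ndufa12, and its WT mean per kb was 180 against 13753 for Sdha and 7018 for Sdhc. The summed share of complex II overlapped between genotypes, the only complex for which it did: 0.0409%, 0.0410% and 0.0390% in WT and 0.0404%, 0.0376% and 0.0374% in UTX TCD.

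Complex III, ubiquinol-cytochrome c reductase, had 6 of 7 tested nuclear subunits lower. Uqcrh, the acidic hinge protein that contacts cytochrome c, had 30350, 29771 and 31198 normalized counts in WT and 21169, 21772 and 20909 in UTX TCD (−0.52, SE 0.04, adjusted p = 1.89e-05). The groups were tight and well apart, with a mean changed by −30.1%, and its WT mean of 55750 per kb was the highest among the nuclear subunits. The small subunits Uqcr10 (−0.36, adjusted p = 2.90e-04) and Uqcrq (−0.35, adjusted p = 7.70e-04) followed. The large core proteins moved less: Uqcrc1 had 13819, 14192 and 15938 against 12801, 13518 and 13298 (−0.15, adjusted p = 0.0711) and Uqcrc2 22761, 22630 and 24928 against 20433, 21622 and 21220 (−0.15, adjusted p = 0.0369), and Uqcrc2 did not pass under scaling to the same sum (−0.09) or when WT library 1 or 3 or any UTX TCD library was left out (−0.17 to −0.11). Uqcrfs1, the Rieske iron-sulfur protein, passed at −0.18 (adjusted p = 0.0299). Uqcr11, a small subunit, was listed at 1.98, 0 and 0 in WT and 0, 2.4 and 0 in UTX TCD and was not tested.

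Complex IV, cytochrome c oxidase, had the lowest nuclear median, with 11 of 14 tested subunits lower and Cox6b2 higher. Cox4i1, the common form of the subunit that binds ATP, had 26905, 25934 and 28925 normalized counts in WT and 21704, 22601 and 21460 in UTX TCD (−0.31, SE 0.05, adjusted p = 0.00110). Cox7b, a small membrane subunit, had 13628, 13932 and 15175 against 10165, 10636 and 10255 (−0.46, SE 0.05, adjusted p = 1.38e-04), and Cox6c had 9045, 8972 and 10550 against 6247, 7131 and 7215 (−0.47, SE 0.08, adjusted p = 0.00141). In all 3 the groups were separate. Cox7a2l, which joins complexes III and IV into supercomplexes, passed at −0.44 (adjusted p = 6.79e-04), and Ndufa4, once placed in complex I and now known as a complex IV subunit, at −0.42 (12519, 13462 and 13211 against 9420, 10037 and 9892, SE 0.05, adjusted p = 1.51e-04). Cox5a did not pass (−0.09, adjusted p = 0.203).

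Cox7a2, the common form of subunit VIIa, was called lower, at 1591, 1581 and 880 in WT and 1053, 573 and 562 in UTX TCD (−0.90, SE 0.28, adjusted p = 0.0317). Its libraries followed the order of Ndufa6, with UTX TCD library 1 above WT library 3, and the call was lost under the same alternatives (−0.89 to −0.75). The span of Cox7a2 shares 2482 bases with Tmem30a, which had a mean of 16580 in WT and 13355 in UTX TCD and passed lower, so with the strand setting not stated the count of Cox7a2 is uncertain. Cox8a passed at −0.32 (9782, 7518 and 9520 against 7209, 7072 and 7080, adjusted p = 0.0199), with WT library 2 close to UTX TCD, and did not pass without WT library 1, WT library 3, UTX TCD library 2 or UTX TCD library 3 (−0.31 to −0.25).

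Cox6b2, a form of subunit VIb best known from testis, had 158, 187 and 137 normalized counts in WT and 598, 543 and 547 in UTX TCD. Every UTX TCD library was far above every WT library (1.82, SE 0.15, adjusted p = 2.31e-05), and it was called higher under each alternative tried. Its common counterpart Cox6b1 went the other way, from 15159, 13925 and 14526 to 11627, 10793 and 10552 (−0.40, SE 0.05, adjusted p = 3.46e-04). Per kb, Cox6b1 stayed the more abundant form by a wide margin, with means of 30864 in WT and 23334 in UTX TCD against 274 and 964 for Cox6b2.

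No other tissue-restricted form of complex IV passed. Cox7a1, the heart and skeletal muscle form of subunit VIIa, had 61.4, 101 and 67.9 normalized counts in WT and 128, 81.7 and 73.7 in UTX TCD (0.29, SE 0.28, adjusted p = 0.447), with overlapping groups. The muscle form Cox6a2 (0 to 3.95), the lung form Cox4i2 (0 to 4.42), Cox8b (1.47 to 13.7) and the hypoxia-induced Ndufa4l2 (2.25 to 7.92) were too low to test, and Cox7b2 and Cox8c were listed at 0 in every library. Cox6a1, the common counterpart of Cox6a2, had 12498, 12299 and 12083 against 10098, 9449 and 9004 (−0.37, SE 0.05, adjusted p = 4.58e-04).

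Complex V, ATP synthase, had 14 of 18 tested nuclear members lower. The 5 subunits of its catalytic head had a median of −0.16 with 3 of 5 lower, and the 12 other subunits −0.30 with 11 of 12 lower. Atp5f1b, the catalytic beta subunit, had 96599, 97994 and 105281 normalized counts in WT and 88837, 96075 and 93534 in UTX TCD (−0.11, SE 0.05, adjusted p = 0.132). Its groups were separate by a small margin and it did not pass. Atp5f1a, the alpha subunit, passed at −0.16 (adjusted p = 0.0451). Atp5f1e, the epsilon subunit of the central stalk, was called lower, at 11962, 12415 and 9493 in WT and 8482, 6906 and 6990 in UTX TCD (−0.59, SE 0.11, adjusted p = 0.00257), with WT library 3 the lowest of its group but above all UTX TCD libraries.

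Small membrane subunits of complex V were also among the lowest. Atp5mg had 5791, 5393 and 6283 in WT and 3768, 4164 and 3855 in UTX TCD (−0.57, SE 0.07, adjusted p = 2.19e-04), and Atp5mk, which supports dimers of the enzyme, had 5979, 6020 and 5795 against 4049, 4150 and 4129 (−0.53, SE 0.04, adjusted p = 3.14e-05). Both had clearly separate groups, although 89.4% and 74.2% of their 50-base windows occur elsewhere in the genome. Atp5mj, with 0.0% of windows elsewhere, had 9390, 9546 and 9461 against 6548, 6720 and 6862 (−0.50, SE 0.04, adjusted p = 2.86e-05). Atp5mf passed at −0.40 (12253, 11603 and 12233 against 9254, 9255 and 8922, SE 0.04, adjusted p = 1.31e-04).

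The membrane rotor of ATP synthase is a ring of identical c subunits made from 3 genes with the same mature protein. Per kb, Atp5mc3 was the most abundant (WT mean 19561), then Atp5mc2 (5593) and Atp5mc1 (1784). Atp5mc2 passed at −0.28 (adjusted p = 0.00237) and Atp5mc3 at −0.14 (adjusted p = 0.0153), and Atp5mc1 did not (−0.18, adjusted p = 0.117); Atp5mc3 also did not pass without UTX TCD library 1 or 2 (−0.14 each) or under scaling to the same sum (−0.08). In each of these genes every UTX TCD library was below every WT library, and 86.1% of the windows of Atp5mc1 and 100% of those of Atp5mc2 occur elsewhere, so their counts are uncertain. Atp5if1, which inhibits ATP hydrolysis by the enzyme, was the exception in direction, with 2641, 2306 and 2392 in WT and 2888, 2650 and 2520 in UTX TCD (0.13, SE 0.08, adjusted p = 0.185), overlapping and not passed.

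Copies of members elsewhere in the genome bear on several counts. Of the nuclear subunits, 13 had over 50% of their windows elsewhere, with a median of −0.35 and 10 of 13 lower, and the 42 tested subunits with under 1% had −0.27 with 31 lower. Those limits were set after the data were seen. Among the 5 pseudogenes Ndufs6b was called lower, at 165, 205 and 159 against 110, 96.9 and 100 (−0.77, SE 0.17, adjusted p = 0.00672), while its parent Ndufs6 had 2928, 2919 and 2938 against 2335, 2387 and 2374 (−0.31, SE 0.05, adjusted p = 0.00149). Ndufs5-ps, counted at 1320, 1202 and 1271 against 1107, 1003 and 969, was close to Ndufs5 itself per kb (2529 and 2691 in WT), and the gene and its copy cannot be told apart with certainty. For 20 nuclear subunits the gene span also overlaps that of another listed gene, among them Atp5f1d, which shares 1658 bases with Cbarp.

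Transcript length moved with the result. The tested nuclear subunits had a median RefSeq length of 752 bases and all tested genes 2816. Among genes outside the respiratory chain of up to 1000 bases, the median log2 fold change was −0.19, with 32.2% passed lower and 5.09% higher, and it was −0.06 from 1000 to 2000 bases, 0.02 from 2000 to 4000 and 0.06 above 4000. Subunits in the same bands had −0.36 (44 of 52 lower), −0.20 (14 of 23 lower) and −0.18 (4 of 5 lower), below the other genes of each band. The bands were set after the data were seen, and the part of length in the lower subunit counts was not tested.

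**Figure D4:**
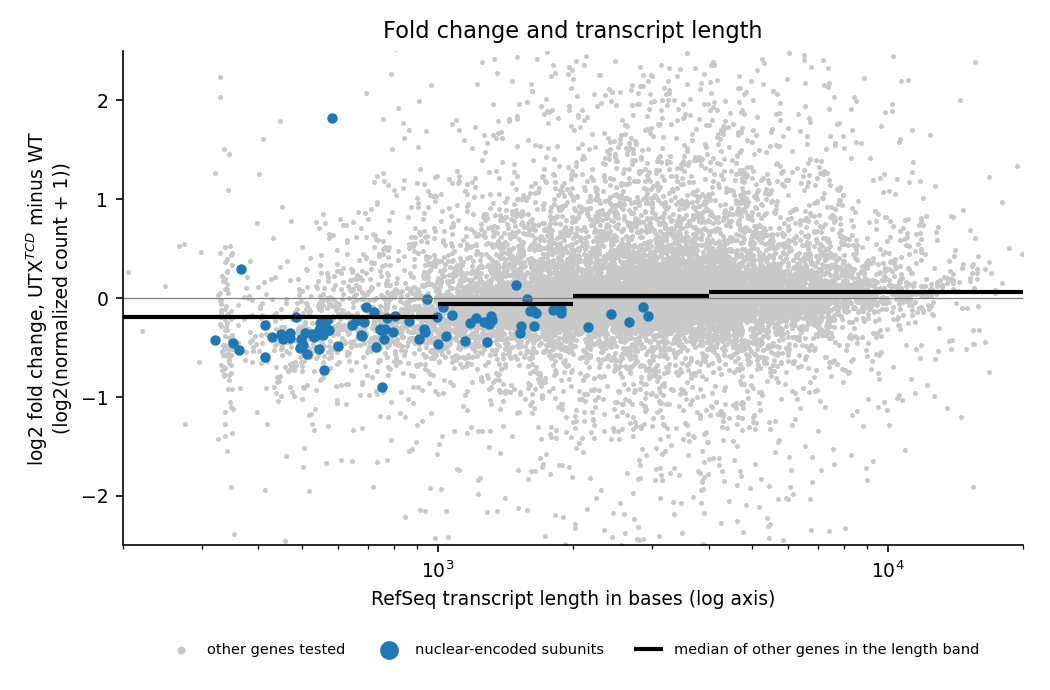
Log2 fold change (UTX TCD minus WT, on log2(normalized count + 1)) against RefSeq transcript length in bases (log axis), with nuclear-encoded subunits in blue, other tested genes in grey and the median of the other genes in each length band as a black line; 493 genes lie outside the plotted range. Other genes of up to 1000 bases have a median of −0.19 and those above 4000 bases 0.06, and the subunits of up to 1000 bases have a median of −0.36.

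Among genes that build the chain, to be read against the 20.5% of all tested genes that passed lower and the 20.2% that passed higher, assembly factors passed lower in 2 of 15 tested for complex I, 2 of 4 for complex II, 3 of 6 for complex III, 9 of 18 for complex IV (2 rose) and 1 of 4 for complex V. Lyrm7, the chaperone that hands over the Rieske protein to complex III, had 1000, 727 and 931 normalized counts in WT and 236, 243 and 331 in UTX TCD (−1.71, SE 0.17, adjusted p = 7.17e-05), far apart between the genotypes and lower by more than any subunit. Pet100, a complex IV assembly factor, had 2530, 2444 and 2352 against 1734, 1503 and 1632 (−0.59, SE 0.07, adjusted p = 2.43e-04). The most abundant factors, Acad9 for complex I (0.03, adjusted p = 0.649) and Coa5 for complex IV (−0.02, adjusted p = 0.751), did not pass. Electron carriers and subunits outside the symbol rule passed lower in 5 of 19 (26.3%), near the share of all genes.

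Genes that make and process mitochondrial RNA are set here beside all tested genes, of which 20.5% passed lower and 20.2% higher. Mitochondrial DNA replication and transcription factors passed in 2 of 17, both lower, and the mitochondrial DNA polymerase Polg was the most abundant of them (−0.16, adjusted p = 0.0291). RNA processing and stability factors passed lower in 3 (14.3%) and higher in 2 (9.52%) of 21, and Lrpprc, which stabilizes mitochondrial mRNAs, had 0.01 (adjusted p = 0.943). Mitochondrial ribosomal proteins passed lower in 39 of 77 (50.6%) and higher in 1, with a median of −0.18. Mrpl33 of the large subunit had 5654, 5336 and 5939 against 3298, 3339 and 3545 (−0.73, SE 0.06, adjusted p = 2.13e-05), and Mrps6 of the small subunit was the 1 that rose, from 1895, 2068 and 1872 to 2904, 2928 and 2553 (0.52, SE 0.07, adjusted p = 6.28e-04). Nuclear regulators of respiratory genes, among them Nrf1, Gabpa and the PGC-1 family, passed in 2 of 12 tested, both higher (16.7%).

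Upstream of the chain, tricarboxylic acid cycle and pyruvate genes passed lower in 9 of 20 (45%, against 20.5% of all genes) and higher in 1. Idh2, the mitochondrial NADP-dependent isocitrate dehydrogenase, had 6567, 5647 and 7027 normalized counts in WT and 3079, 3366 and 3145 in UTX TCD (−1.0, SE 0.08, adjusted p = 2.39e-05), with widely separate groups, whereas Ogdh, the most abundant of the list, did not pass (−0.04, adjusted p = 0.520). Mitochondrial carriers and inner membrane genes passed lower in 6 of 18 (33.3%), and the abundant carrier Ucp2 did not pass (0.09, adjusted p = 0.148).

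Markers of cell state and composition also differed between the genotypes beside the lower respiratory counts, in lists to be set against 20.5% of all tested genes lower and 20.2% higher. Proliferation genes passed higher in 10 of 11, and their summed counts were 74534, 82049 and 76161 in WT and 114417, 117219 and 131780 in UTX TCD; Mki67, the most abundant, rose by 1.08 on the log2 scale (adjusted p = 3.25e-05). Mediator or effector CD8+ T cell genes passed lower in 6 of 9 tested, with sums of 54726, 47179 and 58193 in WT and 37459, 39846 and 40991 in UTX TCD, Nkg7 most abundant and Klrg1 at or near 0. Progenitor genes passed higher in 3 of 7, with Tcf7 most abundant and overlapping sums (512039 to 553650 in WT, 519636 to 557895 in UTX TCD). Genes of RNA quality and stress passed higher in 4 of 11 and lower in 1, with summed counts of 601937 to 638096 in the WT libraries against 777796 to 859025 in UTX TCD and Malat1 most abundant; Xist rose from 147181, 170559 and 154665 to 297027, 315232 and 313136 (0.97, SE 0.06, adjusted p = 8.12e-06). Housekeeping genes passed lower in 4 of 6, with Eef1a1 at −0.24 (adjusted p = 0.0304) and Tpt1 at −0.67 (adjusted p = 2.84e-05). The part of these differences in the respiratory result was not tested.

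Genes of other cell types were low or mixed. Myeloid markers passed lower in 4 and higher in 1 of 6 tested. Their sums were 1367, 1302 and 1217 in WT and 1122, 888 and 1061 in UTX TCD, with S100a8 and S100a9 at 0. Cd68, the most abundant, was the 1 that rose (0.43, adjusted p = 0.0377). The 4 lower markers were all called: Itgam (−2.57, means 449 in WT and 75.8 in UTX TCD), Fcgr3 (−2.15, 78.1 and 17.6), Itgax (−4.57, 43.0 and 1.47) and Csf1r (−1.85, 24.2 and 6.07). Ighm, an immunoglobulin heavy chain gene of B cells, had 111647, 94692 and 103781 normalized counts in WT and 94839, 89654 and 81282 in UTX TCD, with overlapping groups (−0.22, SE 0.07, adjusted p = 0.0402). Cd79b, of the B cell receptor, had 2502, 1930 and 2465 against 648, 633 and 470 and was called lower (−1.98, SE 0.15, adjusted p = 1.47e-05). Pancreatic markers passed lower in 1 of 2 tested, with sums of 204, 181 and 156 in WT and 142, 134 and 114 in UTX TCD, Prss2 most abundant and Ins2 at 0. CD4+ and regulatory T cell genes passed lower in 2 of 5, with sums of 1259, 1243 and 1257 in WT and 1057, 1093 and 1365 in UTX TCD and Ctla4 most abundant. Both were called: Cd4 went from 90.1, 104 and 83.1 to 58.5, 68.1 and 41.3 (−0.74, SE 0.24, adjusted p = 0.0384), and Zbtb7b, a factor of the CD4+ lineage, from 68.4, 34.6 and 86.2 to 9.0, 18.4 and 22.9 (−1.85, SE 0.44, adjusted p = 0.00950). Plasma cell genes passed higher in 2 of 4 tested, with sums of 5234, 5147 and 5353 against 5731, 5644 and 6040 and Xbp1 most abundant. Natural killer markers passed higher in 1 of 2 tested, with sums of 13406, 15370 and 13193 against 19118, 19097 and 26867, set by Eomes, which CD8+ T cells also express (0.62, adjusted p = 0.00388); Ncr1 and Klra8 did not exceed 9.58. Stromal and endothelial genes passed higher in 1 of 3 tested, with sums of 31980, 29774 and 32179 against 37877, 38036 and 33924, set by Pecam1 (0.22, adjusted p = 0.0114), and Cdh5 was at 0 in the UTX TCD libraries. The part of these genes in the respiratory result was not tested.

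ATAC-seq was available as the authors' list of peaks compared between the genotypes. The list gives the mean log2 signal of each genotype and no values per library. Of its 23932 peaks, 45 were annotated to 27 members, 26 of them higher in UTX TCD and 19 higher in WT; over the whole list 16466 were higher in UTX TCD and 7466 in WT. Within 1 kb of a start lay 3571 peaks of the whole list, 3084 of them higher in UTX TCD and 487 in WT, and 5 of the 45, with 3 higher in UTX TCD and 2 in WT. The peak at the Cox6b2 promoter (chr7:4752891-4753291, 3 bases from the start) went from 9.83 in WT to 10.59 in UTX TCD, the same direction as its mRNA. Peaks at the Atp5f1e promoter (chr2:174463955-174464355, 11.39 to 10.99) and the Atp5mf promoter (chr5:145191366-145191766, 10.05 to 9.84) were lower in UTX TCD, as their mRNAs were. The Ndufc2 promoter peak (chr7:97399877-97400277, 9.28 to 9.76) and the Ndufs4 promoter peak (chr13:114387851-114388251, 9.33 to 9.69) were higher in UTX TCD while their mRNAs passed lower. These values are the authors' means on the log2 scale, in mm10 coordinates. The study counted a region as differentially accessible only past the absolute log2 fold change limit that is used here for calls. That limit was not applied to the list here. By these means, only the Cox6b2 peak among the 5 promoter peaks passed it.

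Promoters of these 5 genes are given because mean ATAC-seq signal and mRNA can be set side by side there. Both were higher for Cox6b2 and lower for Atp5f1e and Atp5mf, and they went opposite ways for Ndufs4 and Ndufc2. Apart from Cox6b2, these pairings rest on differences in mean signal below the study's fold limit for a changed peak. Sequences are from RefSeq (GRCm38.p6), 250 bases before to 50 bases after the start, 5′ to 3′ on the gene's strand, at chr7:4753045-4753344 for Cox6b2, chr2:174464052-174464351 for Atp5f1e, chr5:145191492-145191791 for Atp5mf and chr13:114388045-114388344 for Ndufs4, all on the minus strand, and chr7:97399753-97400052 for Ndufc2, on the plus strand. Capitals mark exact matches on either strand to 6 motifs known from promoters of respiratory genes or promoters in general, a list chosen after the data were seen.
Cox6b2: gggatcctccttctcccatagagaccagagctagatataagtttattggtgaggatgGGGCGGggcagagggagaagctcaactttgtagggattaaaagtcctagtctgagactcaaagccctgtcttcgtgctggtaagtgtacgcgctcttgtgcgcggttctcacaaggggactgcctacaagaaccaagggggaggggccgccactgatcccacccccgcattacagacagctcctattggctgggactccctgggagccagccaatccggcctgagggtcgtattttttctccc
Atp5f1e: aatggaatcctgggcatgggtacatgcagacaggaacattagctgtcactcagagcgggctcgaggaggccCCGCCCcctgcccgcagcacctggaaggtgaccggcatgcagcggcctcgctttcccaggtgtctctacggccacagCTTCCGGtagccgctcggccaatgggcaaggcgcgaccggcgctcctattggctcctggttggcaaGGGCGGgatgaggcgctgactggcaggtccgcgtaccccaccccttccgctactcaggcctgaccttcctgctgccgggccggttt
Atp5mf: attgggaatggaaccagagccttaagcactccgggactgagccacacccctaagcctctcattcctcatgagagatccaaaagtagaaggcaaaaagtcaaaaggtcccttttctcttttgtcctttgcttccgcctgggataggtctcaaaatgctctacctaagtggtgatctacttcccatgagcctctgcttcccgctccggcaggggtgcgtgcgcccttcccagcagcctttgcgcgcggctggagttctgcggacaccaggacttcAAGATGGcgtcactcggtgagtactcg
Ndufs4: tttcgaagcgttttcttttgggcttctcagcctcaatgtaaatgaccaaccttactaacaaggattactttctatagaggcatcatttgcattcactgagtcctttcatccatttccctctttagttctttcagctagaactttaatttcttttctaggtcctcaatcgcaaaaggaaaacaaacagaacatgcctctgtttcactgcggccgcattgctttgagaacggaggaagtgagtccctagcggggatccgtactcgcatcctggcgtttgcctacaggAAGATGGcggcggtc
Ndufc2: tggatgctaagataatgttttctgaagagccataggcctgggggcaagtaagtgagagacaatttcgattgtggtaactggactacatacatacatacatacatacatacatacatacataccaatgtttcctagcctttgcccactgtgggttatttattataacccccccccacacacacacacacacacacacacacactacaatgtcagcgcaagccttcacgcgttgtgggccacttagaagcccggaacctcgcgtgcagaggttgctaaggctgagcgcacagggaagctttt
The Atp5f1e promoter held an ETS core and SP1 boxes, Atp5mf and Ndufs4 each a YY1 motif close to the start, Cox6b2 only an SP1 box, and Ndufc2 no match to any of the 6 in this window. Over the 70 member promoters found, the ETS core CCGGAAG was in 22.9% (9.12% of all 27025 mouse promoters), the NRF1 core GCATGCG in 14.3% (3.64%), the YY1 motif AAGATGG in 14.3% (6.48%), the E-box CACGTG in 10% (7.24%), the SP1 GC box GGGCGG in 41.4% (35.9%) and the TATA box TATAAA in 11.4% (14.2%). Letters were searched on both strands, each motif on its own, and a match describes the sequence and is not a measured site.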

How the data were processed

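RNA-seq reads were checked with FastQC, aligned to mm10 with HISAT2 2.2.1, counted per gene with featureCounts and normalized with DESeq2 by the authors; the gene annotation, the strand setting and the treatment of reads with several matches are not stated. The deposited RNA-seq signal holds, for each gene, its reads after division by the library's size factor. Whole reads were recovered from each library's smallest step (100% of values whole within 0.01). The deposited ATAC-seq values are the mean log2 signal per genotype in peaks called with MACS2 and compared with DiffBind by the authors, from reads aligned with Bowtie2; a shift of reads for the transposase is not stated. Both deposited tables also hold the authors' own comparisons (log2 fold changes with errors, p-values and adjusted p-values), which were not used.

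Genes were kept where normalized counts averaged 10 or more across all 6 libraries. The test was limma 3.58.1 (R 4.3.3; lmFit, then eBayes with a trend) of genotype alone, fitted to log2 of the normalized count plus 1, with Benjamini-Hochberg adjustment over 14459 genes; fold changes of low genes are understated on this scale. A gene fell or rose at an adjusted p under 0.05 and was called with an absolute log2 fold change over 0.5. The fit was also run on simulated data, and the pass limit was lowered after DESeq2, an alternative only, fell short of it. The outcome of that run is not given here. Of the members, 107 matched RefSeq by symbol or synonym, and 50-base windows were searched exactly in GRCm38.p6. Alternatives used edgeR 4.0.16 and DESeq2 1.42.0 on the recovered reads, other scalings, filters and pseudocounts, a replicate block, and each library left out.

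Named were all mitochondrial genes and Sdha to Sdhd. In each other complex, every called member and those with the largest and smallest changes were named. Tissue-restricted forms beside common forms and members with a promoter peak were also named. For the pathway lists, the called gene of largest change and the most abundant gene were named in some lists only. For example, Atf3 (1.74), of the RNA quality and stress list, was called higher and is not described above. Other genes named were chosen after their values were seen. The members and lists were chosen with earlier results of these data known. Not every marker list is reported here as a whole. The study's text gives 3 biological replicates per genotype for ATAC-seq and 3 per group for both assays; whether each RNA-seq library came from a separate mouse is not stated in the labels, and p-values measure the spread between these libraries.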

Additional observations from a re-analysis of the deposited data

How the results depend on the processing

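Over 14459 genes tested, 2538 were called, with 2541 in edgeR and 2422 in DESeq2, and 5887 without a limit on the fold change. Respiratory chain genes called lower numbered 11, with 11 in edgeR and 8 in DESeq2, 6 after scaling all libraries to 1 sum, 6 with that sum taken without the mitochondrial genes, and 78 without the fold limit, which by construction counts every member that passed. The median of the nuclear-encoded subunits was −0.31, and −0.25 and −0.26 under those scalings; it was −0.28 over only the subunits with under 10% of windows elsewhere, an alternative chosen after seeing the data. Of the 26 peaks higher in UTX TCD at members, 3 lay within 1 kb of a start. Apart from the fold limit and the peak distance, the cause was not tested.

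Leaving out 1 library at a time gave 2162 to 2572 calls over all genes, 11 to 15 members called lower and 1 called higher, 56 to 70 members passed lower (56 without UTX TCD library 2, 58 without WT library 1), medians of −0.50 to −0.33 for mitochondrial mRNAs and −0.30 to −0.28 for nuclear subunits, a log2 ratio difference of −0.20 to −0.05 (−0.22 with log2 counts averaged over genes) and a share difference of −0.751 to −0.485 percentage points. Ndufs3 (−0.01) reversed to 0.05 and 0.04 under the same-sum scalings and ranged from −0.02 to 0.01 with 1 library left out, 0.01 without WT library 3, and Ndufv3 (−0.01, −0.05 to 0.05 with 1 library left out) to 0.05 and 0.04 under those scalings, 0.05 without WT library 1 and 0.03 without UTX TCD library 3; neither passed in any of them and the cause was not tested. Over the 49 tested members named by rule and all alternatives, 700 values kept direction and side of the adjusted p limit. Of the rest, 75 lost that limit, 2 gained it and 7 reversed. Other genes named are not counted here, nor are calls lost through the fold limit alone. Under scaling to the same sum, Uqcrh (−0.45) and Atp5mk (−0.47) lost their calls in that way.

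Same-numbered libraries correlated at 0.31, −0.20 and 0.09 in their deviations from the group means, and not every library correlated best with its own number. With 3 libraries per genotype, these values cannot decide whether same-numbered libraries were prepared together. With the replicate number as a block, 2474 genes were called, 11 members lower and 1 higher, and 76 members passed lower; ND6 was the named member that no longer passed.

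The shallowest library held 61512402 reads, and 8 members were too low to test. The part of depth in the results was not tested. With 3 libraries per genotype, differences near the SD, such as the summed ratio between genomes, could not be resolved. Counts of genes with copies elsewhere, of overlapping genes and of mitochondrial genes wholly or partly in the chromosome 1 copy remain uncertain. The chromosome 1 grouping, the window limits, the length bands and the motif list were chosen after seeing the data, and leaving out the 6 mRNAs wholly or almost wholly in that copy moved the mitochondrial median from −0.41 to −0.35. RNA levels do not measure protein or respiration.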
